A study of Homo sapiens with 16 samples.

Results

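The mock_cre xenografts are 4 of 16 tumours grown from the prostate cancer line PC-3, an established human cell line, and they are set here against the 12 tumours of the 3 other lines. The arrays were chosen by their label alone, the 4 mock_cre columns of the deposited matrix, and only probe sets that name exactly 1 gene were used, which gave 20276 genes. Each line gave 4 independent tumours. The mock_cre line had short telomeres, carried no exogenous hTERT, the reverse transcriptase subunit of telomerase, and is marked mock/cre+. The mock line had short telomeres, no exogenous hTERT and no Cre mark. LhTERTL combined long telomeres with exogenous hTERT, and LhTERTL_cre, marked LhTERTL/cre+, had long telomeres with the exogenous hTERT absent. All tumours came from 1000000 cells injected under the skin of female nude mice, 5 weeks old and of BALB/c background, and were taken at a diameter of at least 5 mm. Each combination of telomere length and Cre mark is 1 line, and the labels do not say whether a line was a clone or a pool, so the Cre mark and the line it sits in cannot be told apart. The p-values below measure the spread among tumours of a line, not the spread among lines.

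Cre is a phage recombinase that cuts out DNA lying between loxP sites, and the labels show exogenous hTERT present in LhTERTL and absent in LhTERTL_cre. Telomerase adds telomeric repeats to chromosome ends, and most cancer cells depend on it for continued division. The mock_cre line holds neither long telomeres nor exogenous hTERT, so the labels set it beside mock as the second control. PC-3 cells grow without androgen and carry a mixture of epithelial and mesenchymal features.

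RNA was read on Affymetrix arrays, and each deposited value is a log2 signal minus the median of that probe set over the 16 arrays. A value of 0 is therefore the middle array, not absence, and values show differences between tumours and never how strongly a gene was expressed. The presence of PC-3 markers as a level could not be checked for the same reason. Differences below are in log2 units, so a difference of 1 is a 2-fold change.

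The mock_cre arrays stood apart in a sign of RNA quality. Affymetrix labelling starts at the poly-A tail, so broken or incompletely copied RNA lowers the signal at the 5′ end of a transcript more than at the 3′ end. Averaged over the controls for GAPDH and for beta-actin, the 3′ minus 5′ signal was 0.40, 0.55, 0.41 and 1.21 in mock_cre tumours 1 to 4, against -0.29 to 0.30 (median -0.07) in the 12 others. All 4 mock_cre arrays lay above all 12 others, with mock_cre 4 farthest out. The means differed by 0.67, with an exact two-sided permutation p of 0.000549 (adjusted over 4 tests 0.0022), the smallest that 1820 arrangements allow. Set against each other line singly, 4 arrays against 4, mock_cre gave p = 0.0286 by the same exact test, the smallest that 70 arrangements allow. The other lines were not tested against one another.

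Both ends of the ratio were lower in mock_cre, the 5′ end more so. The 5′ probe set of GAPDH averaged -0.68 ± 0.17 in mock_cre (SD, n = 4) against -0.32 to 0.37 in the others, and that of beta-actin averaged -0.98 ± 0.42 against -0.64 to 0.56. Their 3′ probe sets averaged -0.18 ± 0.14 and -0.20 ± 0.17 in mock_cre, against -0.03 to 0.21 and -0.32 to 0.15. Probe sets of 1 gene also disagreed more in mock_cre, with a median SD among them of 0.130 to 0.161 per array, against 0.0899 to 0.147. In mock_cre 4 the 18S ribosomal control was -0.41, against -0.12 to 0.08 in the 12 others. The poly-A controls, RNAs added in the laboratory, were high on 5 arrays spread over all 4 lines, mock_cre 1 and 4 among them at 1.30 and 0.81. Because the arrays carry a spiked control made from the P1 cre gene, Cre expression itself could not be read.

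**Figure D1:**
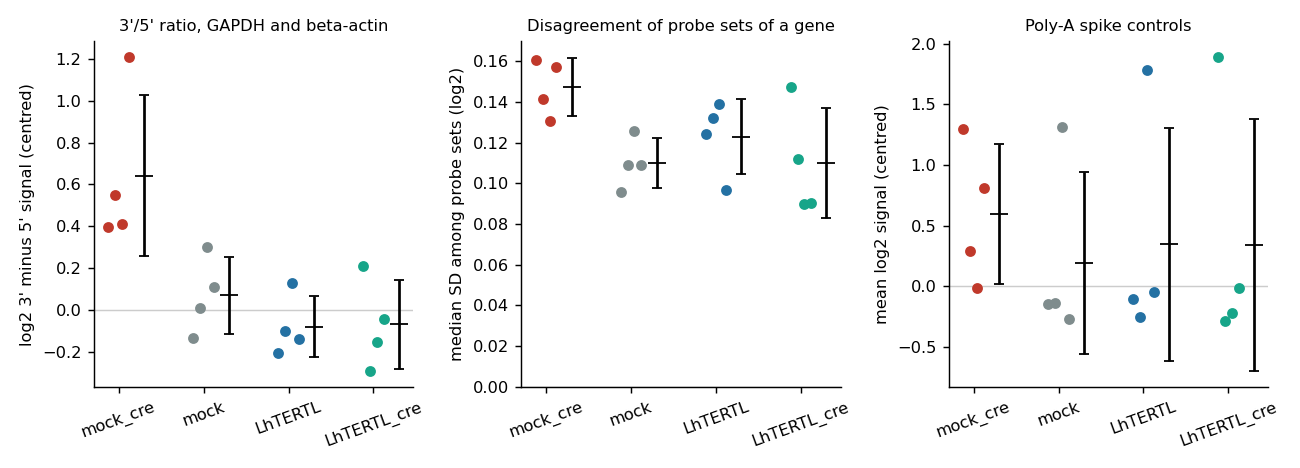
Array controls by line, with mock_cre at the left of each panel. Points are arrays and the black marks are means with SD (n = 4); the panels show the 3′ minus 5′ signal of the GAPDH and beta-actin controls (log2), the median SD among probe sets of a gene (log2), and the mean poly-A spike signal (log2, centred). All 4 mock_cre arrays lie above the others in the first panel.

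Genes that set mock_cre apart were asked for by a strict rule. A gene stood apart where the mock_cre mean was higher, or lower, than each of the other 3 line means, and where the largest of the 3 limma p-values, Benjamini-Hochberg adjusted over all genes, was under 0.05. By this rule 1532 of 20276 genes (7.56%) set mock_cre apart, 659 higher (3.25%) and 873 lower (4.31%). The same rule gave 181 genes for mock, 135 for LhTERTL and 1 for LhTERTL_cre. All 4 mock_cre arrays lay above all 12 others for 900 genes (4.44%) and below them for 1116 (5.50%). By this measure the other lines were less far behind, with 374 above and 245 below for mock and 429 and 166 for LhTERTL. For LhTERTL_cre they were 111 and 105.

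Most of the differences were small. Against the nearest of the other line means, 42 of the 659 higher genes and 58 of the 873 lower genes differed by at least 2-fold. At that size the rule gave 100 genes for mock_cre, 32 for mock, 35 for LhTERTL and 0 for LhTERTL_cre. The line nearest to mock_cre was mock for 350 of the higher genes (53.1%) and 548 of the lower ones (62.8%). Against the mean of the other lines, a looser comparison, 6343 genes (31.3%) were called, 2866 higher (14.1%) and 3477 lower (17.1%). The excess of lower genes was not present after quantile normalisation, with 2585 higher and 2533 lower. At the edge of the strict rule, NIN at -0.22 and BYSL at -0.30 from the nearest line lay just inside, and FCGBP at 1.06 and ZDHHC23 at 0.94 just outside.

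The counts moved when the 3′/5′ ratio was put in the model. With the ratio of each array as a covariate, 163 genes were higher and 240 lower, and 351 of these genes were among the 1532. Without mock_cre 4, the array of highest ratio, 520 were higher and 736 lower. Quantile normalisation between arrays gave 309 higher and 261 lower, so the larger share of lower genes did not hold under that scaling. How much of the 1532 follows from RNA quality was not tested, and because every mock_cre array lies above every other array in the ratio, line and ratio are separated only by the spread within lines. The covariate therefore leaves less information on each mock_cre difference, and a call can be lost with little change in size. List counts under these settings, given below, stand beside the all-gene counts of the same setting, which are smaller than 659 and 873.

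**Figure D2:**
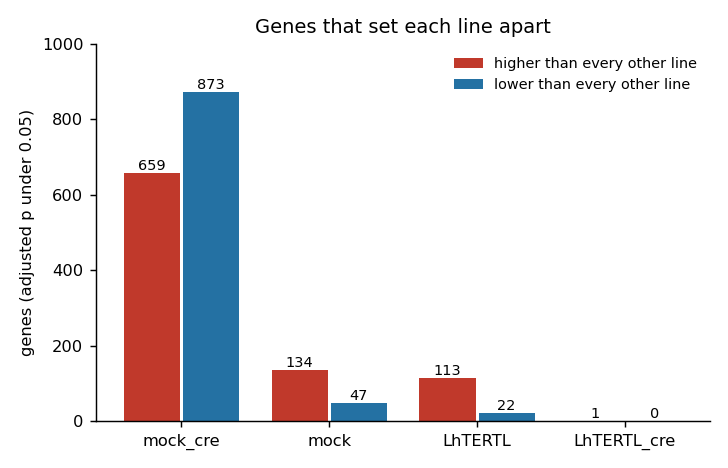
Number of genes that set each line apart from every other line. Bars count the genes whose mean is higher (red) or lower (blue) than in each of the other 3 lines with an adjusted p under 0.05 out of 20276 genes; mock_cre has 659 and 873, and the next line, mock, has 134 and 47.

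The genes that rose most in mock_cre were an epithelial splicing factor, a potassium channel subunit, a neuronal surface protein, steroid and retinoid enzymes, and several RNAs without a protein. They were the 15 with the largest difference from the nearest line among genes that stood apart, did not overlap on any array and had all probe sets on 1 side, and their differences from the nearest line were 1.21 to 2.0. LRRC31, a leucine-rich repeat protein, read 2.82, 1.85, 2.39 and 1.68 in mock_cre tumours 1 to 4, against -1.15 to 1.54 (median -0.07) in the 12 others. The highest of the other arrays, mock 3 at 1.54, came close to the lowest mock_cre tumour without reaching it. LRRC31 read -0.78 to 0.003 in the other mock tumours. Of the 12 other arrays mock 3 had the highest 3′/5′ ratio, 0.30, and its poly-A spike signal was high at 1.31. For most of the 15 genes mock 3 was the highest mock tumour, though not for EGFEM1P. The LRRC31 difference from the nearest line, mock, was 2.0 ± 0.37 (SE), 3.99-fold, with an adjusted p of 0.00264 in limma. On the 5 arrays of high spike signal it was 0.71. With the ratio as a covariate the difference was 1.87 and LRRC31 no longer passed.

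DACH2, a transcriptional cofactor of the dachshund family on chromosome X, read 2.68, 1.40, 2.69 and 1.38 in mock_cre, against -0.42 to 0.79 (median -0.06). The mock_cre tumours formed a high pair and a lower pair, both above every other tumour, as the choice of the gene required. It differed from mock, the nearest line, by 1.83 ± 0.27 (adjusted p = 0.000433), and by 2.12 with the ratio as a covariate. ARFGEF3, of the family of exchange factors for ARF GTPases, read 1.96, 1.47, 1.88 and 1.28, against -0.71 to 0.58 (median -0.11). Its 4 probe sets lay on the same side, and the difference of 1.65 ± 0.20 from mock held under the covariate at 1.79.

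KCNMB4, a regulatory subunit of the large-conductance potassium channel, was the most even of these genes among mock_cre tumours. It read 1.73, 1.70, 1.54 and 1.57 in mock_cre, against -0.52 to 0.55 (median -0.07), a difference of 1.53 ± 0.17 from LhTERTL_cre (adjusted p = 4.33e-05). ESRP1, the splicing regulator of epithelial cells, read 2.06, 1.48, 2.34 and 1.81 in mock_cre, against -2.02 to 1.01 (median -0.45). The 12 others were themselves widely spread, with means of 0.30 in LhTERTL, -0.98 in LhTERTL_cre and -0.61 in mock. The difference of 1.62 ± 0.45 from LhTERTL had an adjusted p of 0.0338, and ESRP1 no longer passed without mock_cre 4 or with the ratio as a covariate.

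Enzymes of steroids and retinoids were among the 15. HSD17B11, a lipid-droplet dehydrogenase, read 1.52, 1.39, 1.28 and 1.16 in mock_cre, against -0.75 to 0.52 (median -0.09), and was 2.51-fold higher than mock (adjusted p = 0.000128). DHRS3, which reduces retinal to retinol, differed from LhTERTL by 1.26, and by 1.03, short of the threshold, with the covariate. EPB41L5, a cytoskeletal adaptor of cell junctions, read 1.10 to 1.77 in mock_cre, against -0.56 to 0.81 in the others, with all 4 probe sets on 1 side. The pseudogene EGFEM1P had the smallest adjusted p of the higher genes named, 9.11e-06, at 2.40-fold over mock. The antisense transcripts SSTR5-AS1 and LIF-AS2 differed from the nearest line by 1.38 and 1.22, TLCD4 by 1.74, SLITRK4 by 1.54 and PARP8 by 1.40. NCRNA00291, which kept the array's own name, differed by 1.58. Of the 15 higher genes, 7 also stood apart with the ratio as a covariate and 14 without mock_cre 4.

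The genes that fell most were secreted factors of mucosal epithelium, desmosome parts, a steroid-inactivating enzyme and a peptide hormone. The 15 chosen by the same rule lay 1.51 to 3.39 log2 units below the nearest line. HSD17B2, which oxidises oestradiol and testosterone to their less active keto forms, read -3.27, -2.65, -3.67 and -3.84 in mock_cre, against -0.77 to 1.94 (median 0.41) in the 12 others. All 4 mock_cre tumours lay far below the lowest of the other tumours, where the choice of the 15 required only that they not overlap. It was 10.5-fold lower than in mock, the nearest line, a difference of -3.39 ± 0.45 (adjusted p = 0.000179).

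The trefoil factors TFF2 and TFF3, small secreted proteins that protect mucosal surfaces, both fell. TFF2 read -2.64, -2.60, -2.52 and -2.36 in mock_cre, against -0.22 to 0.94 (median 0.22), 6.03-fold lower than mock with an adjusted p of 1.76e-06. TFF3, its neighbour on chromosome 21, read -2.52, -2.30, -2.68 and -1.96, against -1.15 to 1.70 (median 0.59). The 12 other tumours were not uniform for TFF3: LhTERTL averaged 0.79, LhTERTL_cre 1.18 and mock -0.85. TFF3 no longer passed after quantile normalisation.

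The desmosome genes DSC2 and PKP1 were lower in every mock_cre tumour than in any other. DSC2, a desmosomal cadherin, read -1.78, -1.99, -1.86 and -1.63 in mock_cre, against -0.66 to 1.22 (median 0.48), a difference of -1.55 ± 0.16 from mock (adjusted p = 2.33e-05). PKP1, a plakophilin that anchors desmosomes to keratin filaments, read -1.71, -1.32, -1.77 and -1.87, against -0.53 to 0.97 (median 0.11), a difference of -1.60 ± 0.16. Both also stood apart with the ratio as a covariate, DSC2 at -1.47 and PKP1 at -1.36. DSG2, another desmosomal cadherin, fell by 0.45 against LhTERTL but overlapped other tumours.

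NME5, a nucleoside diphosphate kinase relative of cilia and sperm, read -2.43, -1.88, -2.56 and -3.32 in mock_cre, against -0.33 to 0.61 (median 0.38), 5.41-fold lower than LhTERTL_cre. Its lowest value was in mock_cre 4, the array of highest 3′/5′ ratio, and with the ratio as a covariate the difference was -1.83, against -2.44. ANXA10, an annexin of gastric epithelium, behaved likewise, at -2.08 from mock and -1.44 with the covariate. TFPI2, an inhibitor of matrix-degrading serine proteases, read -1.64, -1.32, -2.17 and -1.82, against -0.20 to 0.45 (median 0.10), and its difference from LhTERTL was -1.83 and, with the covariate, -1.86. UTS2, which encodes the vasoactive peptide urotensin 2, differed from mock by -2.35, but its 2 probe sets were unlike in size, at -5.49 and -0.17 against the mean of the other lines.

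Among the rest, ACTRT3, an actin relative of the testis, was 4.49-fold lower than the nearest line, NUDT11, a diphosphoinositol polyphosphate phosphohydrolase, 3.53-fold, and PCDHB7, a protocadherin, 3.54-fold. BCL2A1, a protein that protects against apoptosis, differed by -1.67, GNG11, a G protein gamma subunit, by -1.62, and ZNF239, a zinc finger protein, by -1.62. Of the 15 lower genes, 13 also stood apart with the ratio as a covariate, all except PCDHB7 and BCL2A1, and 15 without mock_cre 4. The sign of the difference was the same with the covariate for all 30 genes.

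**Figure D3:**
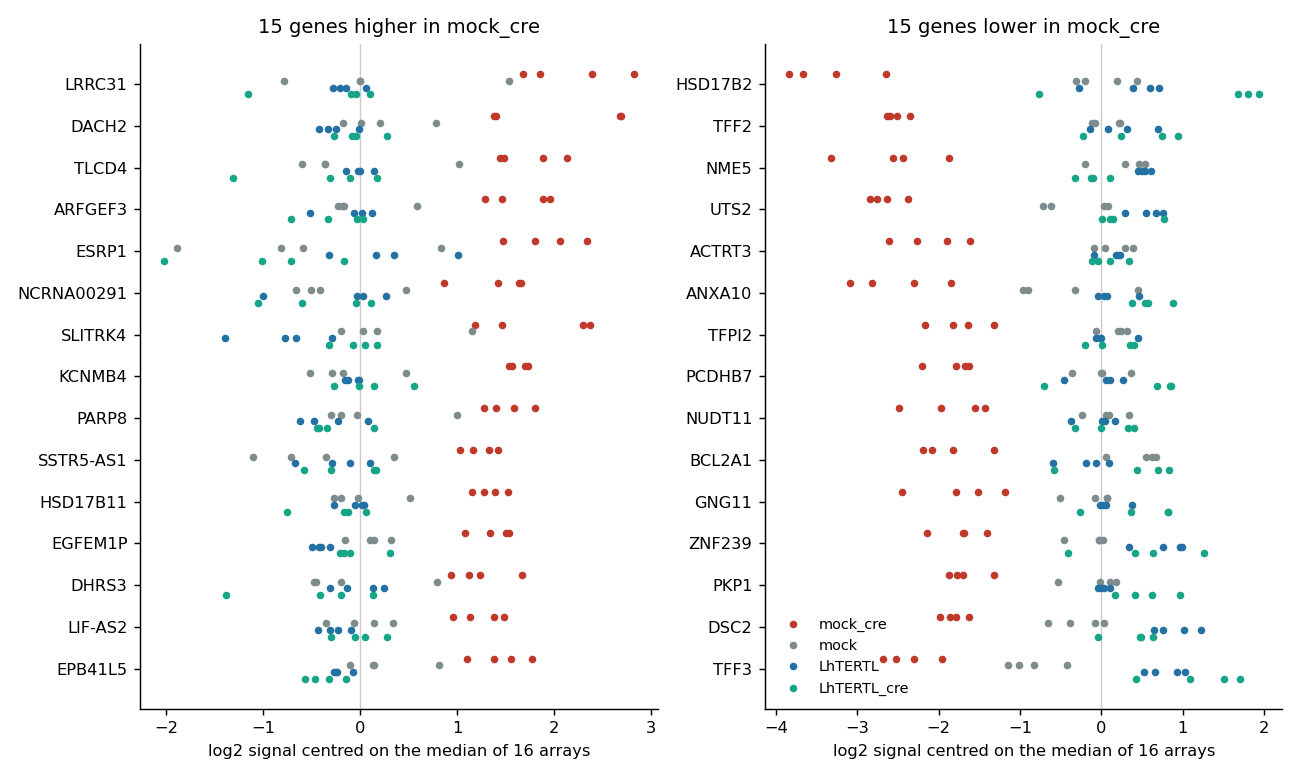
The 15 genes higher and the 15 lower that differ most between mock_cre and the nearest other line. Each point is 1 tumour (log2 signal centred on the median of the 16 arrays), coloured by line, with mock_cre in red on the top row of each gene. In all 30 genes the 4 mock_cre tumours lie beyond the 12 others, which the choice of the genes required. HSD17B2 lies lowest, from -3.84 to -2.65.

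Part of the cell division genes were lower in mock_cre than in every other line. Of 42 measured, 11 stood apart lower and none higher, 26.2% of the list against 4.31% of all genes. Against the mean of the other lines 35 were called lower, where 17.1% of all genes were. The median of the list against that mean was -0.55, beside -0.03 over all genes. PCNA, the sliding clamp of DNA replication, read -0.79, -0.95, -0.77 and -0.75 in mock_cre, against -0.24 to 0.40 (median 0.19) in the 12 others. No mock_cre tumour overlapped another tumour, and the difference from mock was -0.63 ± 0.07 (limma adjusted p = 3.24e-05). TTK, a kinase of the spindle checkpoint, differed from mock by -0.75 ± 0.13, and KIF20A, a kinesin of late mitosis, by -0.75 ± 0.14.

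The order of the lines was graded. The mean over the cell cycle list was -0.49 ± 0.16 in mock_cre (SD over 4 tumours), against 0.22 ± 0.06 in LhTERTL, 0.29 ± 0.12 in LhTERTL_cre and -0.25 ± 0.11 in mock. The mock_cre range, -0.64 to -0.32, overlapped that of mock, -0.40 to -0.16, and lay below that of the long-telomere lines. CDK1, the kinase that drives entry into mitosis, averaged -0.91 in mock_cre, against 0.34 in LhTERTL, 0.39 in LhTERTL_cre and -0.35 in mock. MAD2L1, of the spindle checkpoint, averaged -0.71, against 0.22, 0.30 and -0.15 in the same order of lines. MKI67, the proliferation antigen, fell by 0.48 against mock and overlapped mock tumours.

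With the array's 3′/5′ ratio in the model 2 of the 42, PCNA and TTK, stood apart, beside 240 of all 20276 genes lower. The list's median was -0.63 in that fit. Without mock_cre 4, the count was again 11, and quantile normalisation gave 4, beside 261 of all genes lower. Because tumours are bulk tissue, fewer dividing cells and less RNA of these genes per cell cannot be told apart, here and in the lists that follow.

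Promoters of cell cycle genes often carry the cell cycle homology region, TTTGAA, a site linked to repression outside of division. Searched on both strands in the window from 250 bases before to 50 after each start (RefSeq, GRCh38.p14), TTTGAA was present in 12 of 33 list members with a promoter (36.4%), beside 11.5% of 14944 promoters. It was present in 4 of 8 that stood apart with a promoter, namely MKI67, CDK1, MAD2L1 and KIF11. The promoters of CDK1 (chr10:60778081-60778380, plus strand) and MAD2L1 (chr4:120066799-120067098, minus strand) are shown 5′ to 3′ as examples of members that fell together, with the match in capitals.
CDK1: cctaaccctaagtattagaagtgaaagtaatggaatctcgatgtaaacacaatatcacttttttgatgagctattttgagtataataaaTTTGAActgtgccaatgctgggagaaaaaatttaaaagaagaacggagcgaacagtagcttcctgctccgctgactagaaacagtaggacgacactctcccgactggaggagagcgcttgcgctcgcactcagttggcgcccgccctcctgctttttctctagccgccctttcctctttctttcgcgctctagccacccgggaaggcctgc
MAD2L1: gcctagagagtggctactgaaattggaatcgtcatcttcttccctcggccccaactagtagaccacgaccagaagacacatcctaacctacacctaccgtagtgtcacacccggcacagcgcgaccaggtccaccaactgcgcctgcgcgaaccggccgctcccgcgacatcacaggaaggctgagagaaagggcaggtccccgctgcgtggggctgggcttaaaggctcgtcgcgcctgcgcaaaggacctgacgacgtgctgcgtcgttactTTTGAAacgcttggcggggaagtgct

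Several glycolysis genes that hypoxia induces were also lower, but the list did not move as 1 block. Of 32 measured hypoxia and glycolysis genes, 9 stood apart lower (28.1%, beside 4.31% of all genes) and 2 higher (6.25%, beside 3.25%), and the median against the mean of the other lines was -0.33. PFKFB3, which makes the activator of phosphofructokinase, read -0.71, -0.88, -0.76 and -0.76 in mock_cre, against -0.11 to 0.62 (median 0.35). The groups did not overlap, and the difference from mock was -0.73 ± 0.10 (limma adjusted p = 0.000291). BNIP3, a mitophagy receptor, read -0.57, -0.73, -0.54 and -0.52, against -0.28 to 0.75 (median 0.06), and HK1, a hexokinase, differed from mock by -0.37 ± 0.07.

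PGK1, the phosphoglycerate kinase of glycolysis, averaged -0.53 ± 0.24 in mock_cre, against 0.33 in LhTERTL, -0.02 in LhTERTL_cre and 0.01 in mock. The other genes that fell were HK2, ENO1, GAPDH, PGAM1 and PDK1, at -0.58 to -0.29 from the nearest line. GAPDH, at -0.32, is itself 1 of the 2 genes of the control ratio, though its control probe sets were left out of its gene value. The pair that rose were ADM, the peptide adrenomedullin, at 0.57 over LhTERTL, and INSIG2, a brake on sterol synthesis, at 0.43 over mock. VEGFA, the vascular growth factor, differed from the nearest line by 0.18 and CA9, a carbonic anhydrase, by -0.24, and neither passed. With the ratio as a covariate 2 of the 32 stood apart, lower, beside 240 of all 20276 genes, and the list's median was -0.34. After quantile normalisation 2 were lower and 1 higher, beside 261 and 309 of all genes, with a median of -0.25.

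The hypoxia response element, ACGTG at its core, was present in 15 of 28 list promoters (53.6%) and in 24.4% of all 14944, searched on both strands. Of the 9 that stood apart lower, 4 held it: BNIP3, HK2, PGK1 and GAPDH. The promoters of BNIP3 (chr10:131981874-131982173, minus strand) and PGK1 (chrX:78103998-78104297, plus strand) show the match in capitals, which in BNIP3 is a pair of overlapping matches on opposite strands.
BNIP3: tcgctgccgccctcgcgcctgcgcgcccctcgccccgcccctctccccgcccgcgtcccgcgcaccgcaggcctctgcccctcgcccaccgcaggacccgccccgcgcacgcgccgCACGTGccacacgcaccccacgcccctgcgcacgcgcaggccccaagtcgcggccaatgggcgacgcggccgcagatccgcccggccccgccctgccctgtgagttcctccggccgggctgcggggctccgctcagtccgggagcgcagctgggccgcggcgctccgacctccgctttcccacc
PGK1: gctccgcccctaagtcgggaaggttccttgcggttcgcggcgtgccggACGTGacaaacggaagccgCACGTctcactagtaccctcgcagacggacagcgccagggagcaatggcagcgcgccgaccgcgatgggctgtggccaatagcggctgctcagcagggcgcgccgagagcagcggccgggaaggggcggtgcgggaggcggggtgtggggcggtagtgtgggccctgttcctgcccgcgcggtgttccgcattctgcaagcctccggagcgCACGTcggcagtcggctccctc

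Part of the chaperone list fell as well. Of 27 measured heat shock and chaperone genes 9 stood apart lower (33.3%, beside 4.31% of all genes) and none higher, with a median of -0.37 against the mean of the other lines. That median was -0.10 with plain probe sets alone and -0.25 with the hybridisation control as a covariate. BAG3, a co-chaperone that hands clients to autophagy, read -0.69, -0.54, -0.89 and -0.86 in mock_cre, against -0.28 to 0.22 (median 0.03), a difference of -0.72 ± 0.10 from mock (limma adjusted p = 0.000278). CCT2, a subunit of the cytosolic chaperonin that folds actin and tubulin, read -0.45, -0.62, -0.53 and -0.96, against -0.04 to 0.28 (median 0.04). Its lowest value was in mock_cre 4, and the difference from the nearest line was -0.65, or -0.29 with the ratio as a covariate.

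SERPINH1, a collagen chaperone, read -0.78, -0.44, -0.42 and -0.57, against -0.07 to 0.43 (median 0.07). HSPA8, the constitutive heat shock cognate, averaged -0.40 ± 0.15 in mock_cre, against 0.11 in LhTERTL, 0.02 in LhTERTL_cre and -0.01 in mock, and HSP90AA1 averaged -0.44 ± 0.09, against 0.12, -0.02 and 0.03 in that order of lines. The chaperonin subunits CCT3 and TCP1, with CACYBP and DNAJB6, made up the 9. The inducible HSPA1A, at -0.06 from the nearest line, did not pass. With the ratio as a covariate 2 of the 27 stood apart, beside 240 of all 20276 genes lower, and the list's median was -0.31. Without mock_cre 4 the count was 9.

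The heat shock element core GAANNTTC was present in 9 of 24 list promoters (37.5%), beside 5.37% of all 14944, and in 4 of the 9 that stood apart: HSPA8, DNAJB6, SERPINH1 and TCP1. The promoters of SERPINH1 (chr11:75562003-75562302, plus strand) and HSPA8 (chr11:123062087-123062386, minus strand) are shown with the match in capitals. A match in these windows is a run of letters and not evidence of binding.
SERPINH1: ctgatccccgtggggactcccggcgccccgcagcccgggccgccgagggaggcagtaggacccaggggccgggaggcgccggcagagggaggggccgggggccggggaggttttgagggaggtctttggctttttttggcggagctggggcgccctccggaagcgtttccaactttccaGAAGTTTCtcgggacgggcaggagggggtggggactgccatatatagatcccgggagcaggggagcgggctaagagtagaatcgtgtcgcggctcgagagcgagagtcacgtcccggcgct
HSPA8: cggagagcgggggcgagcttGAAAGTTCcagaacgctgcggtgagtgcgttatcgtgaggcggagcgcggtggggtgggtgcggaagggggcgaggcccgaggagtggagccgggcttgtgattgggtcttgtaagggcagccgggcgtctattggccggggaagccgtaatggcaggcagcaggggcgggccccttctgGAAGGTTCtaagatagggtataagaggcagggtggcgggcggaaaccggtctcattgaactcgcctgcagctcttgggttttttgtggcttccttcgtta

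**Figure D4:**
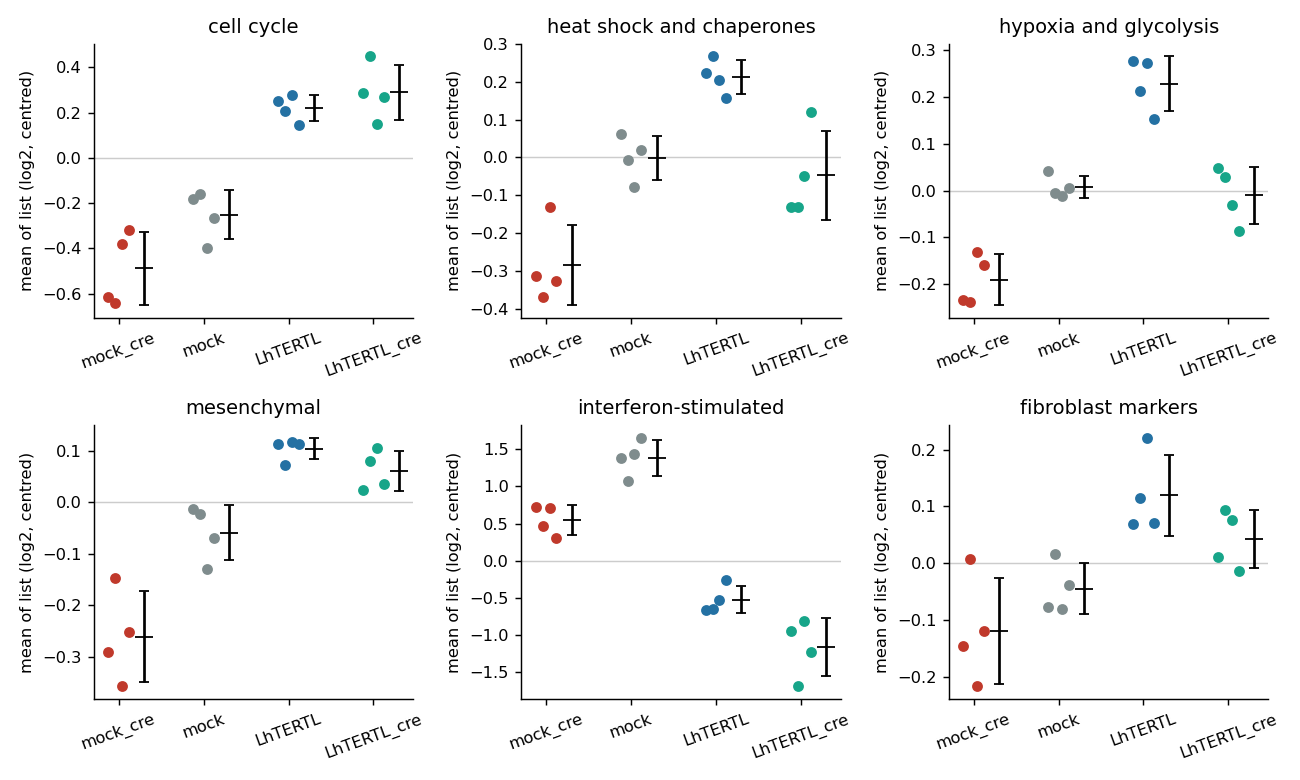
Mean over the members of 6 gene lists in each tumour (log2, centred), by line with mock_cre at the left. Points are tumours and black marks are means with SD (n = 4). The cell cycle, heat shock, hypoxia and mesenchymal means are lowest in mock_cre, while the interferon list mean lies between mock and the long-telomere lines at 0.55.

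Part of the mesenchymal list fell and epithelial genes went both ways. Of 34 mesenchymal genes 8 stood apart lower (23.5%, beside 4.31% of all genes) and 1 higher (2.94%, beside 3.25%), while the list's median against the other lines, -0.12, lay closer to that of all genes. SNAI2, a repressor of epithelial genes, read -0.92, -0.65, -1.54 and -1.08 in mock_cre, against -0.16 to 0.45 (median 0.06), 2.17-fold lower than LhTERTL (limma adjusted p = 0.000274). CDH11, a cadherin of mesenchymal cells, read -0.90, -0.72, -0.95 and -1.06, against -0.18 to 0.29 (median 0.08), with an adjusted p of 8.09e-05. Neither overlapped the other tumours. In the fit with the ratio 2 of the 34 stood apart lower and none higher, CDH11 at -0.67 among them, while SNAI2 at -0.94 no longer passed. The list's median was -0.18 in that fit, where 240 of all 20276 genes stood apart lower. After quantile normalisation 4 stood apart lower and none higher, beside 261 and 309 of all genes.

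VIM, the intermediate filament vimentin, averaged -0.56 ± 0.05 in mock_cre, against 0.06 in LhTERTL, 0.30 in LhTERTL_cre and 0.05 in mock. S100A4, a calcium-binding protein of motile cells, averaged -1.21 ± 0.32, against 0.97, 0.26 and -0.03 in that order of lines. GNG11, AXL, COL6A1 and COL6A3 completed the 8, and MYL9, a myosin light chain, was the 1 that rose, at 0.66 over LhTERTL_cre. ZEB1, a repressor of CDH1, and CDH2, N-cadherin, differed from the nearest line by -0.28 each and did not pass. COL6A3 also belongs to the fibroblast markers, of which it and FBN1 were the 2 of 19 that stood apart, both lower. The fibroblast list mean ran from -0.22 to 0.01 in mock_cre, against -0.08 to 0.22 in the other lines. The part of stromal cells in the mesenchymal count was not tested.

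Of 40 epithelial genes 2 stood apart higher (5.0%, beside 3.25% of all genes), ESRP1 and ERBB3, and 3 lower (7.5%, beside 4.31%), DSC2, KRT19 and DSG2. ERBB3, a receptor of neuregulins, read 0.43, 0.37, 0.57 and 0.46 in mock_cre, against -0.33 to 0.17 (median -0.12). Its 5 probe sets ran from -0.14 to 1.41 against the mean of the other lines. KRT19, a keratin of simple epithelia, read -0.43, -0.50, -0.38 and -0.34, against -0.12 to 0.26 (median 0.01). The probe sets of KRT19 were at -0.70 and -0.22 against the mean of the other lines. DSC2 and KRT19 also stood apart with the ratio as a covariate, and ERBB3 at 0.29 no longer passed. CDH1, E-cadherin, averaged 0.25 in mock_cre, against 0.25 in LhTERTL, -0.50 in LhTERTL_cre and -0.66 in mock, so mock_cre matched LhTERTL and did not stand apart.

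Of 29 integrins and laminins, the matrix receptors and basement membrane chains, 4 stood apart higher (13.8%, beside 3.25% of all genes) and none lower. Against the mean of the other lines 7 were called higher and 6 lower, where 14.1% and 17.1% of all genes were. The list's median was 0.05. LAMA5, an alpha chain of basement membrane laminins, read 0.67, 0.62, 0.87 and 0.57 in mock_cre, against -0.67 to 0.15 (median -0.04), with an adjusted p of 0.000192 in limma. LAMA3, LAMB2 and the collagen receptor subunit ITGA1 rose by 0.63, 0.41 and 0.70 over the nearest line. With the ratio as a covariate LAMA5 was the 1 of these 4 that stood apart. The probe sets of LAMA3 ran from -0.13 to 1.64 against the mean of the other lines, and those of ITGA1 were at 0.38 and 1.32. Among 35 matrix proteases and inhibitors 2 stood apart lower (5.71%, beside 4.31% of all genes) and none higher. PLAT, the tissue plasminogen activator, was among them, fell by 1.03 against LhTERTL and overlapped other tumours.

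Of 33 immediate-early genes, which growth signals switch on or which restrain those signals, 6 stood apart lower (18.2%, beside 4.31% of all genes) and none higher. Against the mean of the other lines 6 were called higher and 14 lower, where 14.1% and 17.1% of all genes were. The list's median was -0.08. DUSP5, a phosphatase of nuclear ERK, read -1.47, -1.38, -1.32 and -1.43 in mock_cre, against -0.59 to 0.30 (median 0.05). The mock_cre tumours lay close together and below all others, 2.31-fold under mock (limma adjusted p = 3.71e-06). SPRY2, which restrains receptor signalling to ERK, read -0.60, -0.75, -1.01 and -1.0, against -0.26 to 0.59 (median 0.11), and KLF6 differed from LhTERTL by -0.59 ± 0.12. Of the 33, 2 stood apart with the ratio as a covariate, DUSP5 among them, while SPRY2 at -0.63 and KLF6 at -0.26 no longer passed. In that fit 240 of all 20276 genes stood apart lower, and the list's median was -0.11.

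FOSL1, a FOS family member, averaged -0.79 ± 0.41, against 0.01 in LhTERTL, 0.24 in LhTERTL_cre and -0.07 in mock, and its mock_cre 4 value of -0.19 overlapped other tumours. JUN and CCN2 were the others, both overlapping. DUSP5 held with the ratio as a covariate at -1.08, whereas KLF6 was at -0.26 and did not pass.

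Targets of secreted signals showed single genes. HEY1, a repressor that Notch induces, read -1.25, -0.96, -1.51 and -1.31 in mock_cre, against -0.30 to 0.24 (median 0.09), 2.32-fold lower than LhTERTL_cre with an adjusted p of 4.38e-06 in limma. NRARP, a feedback regulator of Notch, went the other way at 0.32, and these were the 2 of 22 Notch genes that stood apart. The shares were 4.55% lower, beside 4.31% of all genes, and 4.55% higher, beside 3.25%. Among 26 targets of TGF-beta 2 stood apart lower (7.69%, beside 4.31% of all genes), CCN2 among them. LOX, the enzyme that crosslinks collagen, was the 1 that stood apart higher (3.85%, beside 3.25%). LOX read 1.46, 1.00, 1.57 and 0.92 in mock_cre, against -0.94 to 0.92 (median -0.18), so that the highest other tumour, mock 3, nearly reached the lowest mock_cre tumour. The probe sets of LOX ran from 0.07 to 2.38 against the mean of the other lines. FZD8, a Wnt receptor, was the 1 of 25 Wnt pathway genes (4.0%, beside 4.31% of all genes lower), lower by 0.99 than in mock. ICAM1, an adhesion molecule for leukocytes, was the 1 of 28 NF-kB targets (3.57%, beside 3.25% of all genes higher), higher by 0.43. The probe sets of ICAM1 ran from -0.06 to 1.11 against the mean of the other lines. HEY1 at -1.16 stood apart with the ratio as a covariate, and NRARP, LOX, CCN2, FZD8 and ICAM1 did not.

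The unfolded protein and amino acid response list had 3 of 32 genes higher (9.38%, beside 3.25% of all genes) and 1 lower (3.13%, beside 4.31%). XBP1, a transcription factor of the unfolded protein response, read 0.58, 0.36, 0.62 and 0.37 in mock_cre, against -0.34 to 0.07 (median -0.09). ATF4, the factor of the integrated stress response, read 0.38, 0.53, 0.56 and 0.42, against -0.29 to 0.21 (median -0.02). SHMT2, the mitochondrial serine hydroxymethyltransferase, averaged 0.41 ± 0.20, against -0.16 in LhTERTL, -0.04 in LhTERTL_cre and 0.02 in mock. PPP1R15A, which restarts translation after stress, fell by 0.29. With the ratio as a covariate XBP1 was the 1 that stood apart.

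Interferon-stimulated genes did not set mock_cre apart from every line, since it lay between the others. None of 46 stood apart in either direction, yet 35 were called higher and 2 lower against the mean of the other lines, where 14.1% and 17.1% of all genes were. The mean of the list was 0.55 ± 0.20 in mock_cre (0.30 to 0.72), against -0.52 ± 0.18 in LhTERTL, -1.16 ± 0.39 in LhTERTL_cre and 1.39 ± 0.24 in mock. None of these 4 ranges overlapped. OAS1, a sensor of double-stranded RNA, averaged 0.85, against -0.97 in LhTERTL, -1.72 in LhTERTL_cre and 1.19 in mock. MX1, an antiviral GTPase, had another order, at -0.58 in mock_cre, against 0.61 in LhTERTL, -1.04 in LhTERTL_cre and 2.87 in mock. None of 18 genes of MHC class I presentation stood apart.

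Of 23 prostate lineage genes 3 stood apart higher (13.0%, beside 3.25% of all genes) and 1 lower (4.35%, beside 4.31%). STEAP2, a metalloreductase of prostate epithelium, read 0.99, 0.96, 1.01 and 0.80 in mock_cre, against -0.57 to 0.49 (median -0.08), and rose by 0.98 over LhTERTL_cre. FOXA1, a pioneer transcription factor of prostate epithelium, read 1.03, 0.67, 1.11 and 0.71, against -1.13 to 0.32 (median -0.13), and HOXA13 rose by 0.70. HOXB13, a homeobox factor of the prostate, went the other way, at -1.08, -0.92, -0.95 and -1.13, against -0.49 to 0.96 (median 0.56). KLK3, which encodes PSA, was at -0.04 from the nearest line and did not pass. None of the 4 genes that moved stood apart with the ratio as a covariate.

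Of 21 measured telomere genes 2 stood apart, both lower (9.52%, beside 4.31% of all genes): DKC1, the dyskerin of the telomerase RNA complex, at -0.51 from mock, and DCLRE1B, the Apollo nuclease of telomere ends, at -0.30 from LhTERTL. Neither stood apart with the ratio as a covariate. The probe sets of DCLRE1B were at -0.57 and -0.13 against the mean of the other lines. TERT itself read -0.54, 0.04, -0.31 and -0.05 in mock_cre and averaged 1.48 in LhTERTL, 0.11 in LhTERTL_cre and 0.20 in mock. It was lower by 0.33 than in LhTERTL_cre, the nearest line, and did not stand apart (limma adjusted p = 0.15). Its 2 probe sets differed, at -3.27 and -0.12 between mock_cre and LhTERTL, and this check of the transgene therefore rests on 1 probe set.

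Markers of other cell types gave few calls. Human probes read the mouse host only through cross-hybridisation. Of 16 macrophage and leukocyte, 6 erythrocyte and 13 keratinocyte markers none stood apart, and of 15 endothelial, 9 adipocyte and 14 muscle markers 1 each did. ROBO4 was lower (6.67%, beside 4.31% of all genes), and CIDEC (11.1%) and MB (7.14%) were higher, beside 3.25%. Neither of the 2 probe sets of CIDEC stood apart alone, and those of ROBO4 were at -0.92 and -0.27 against the mean of the other lines. The endothelial list mean ran from -0.17 to 0.03 in mock_cre, against -0.13 to 0.12 in the other lines. COL1A1 and PECAM1, defining genes of fibroblasts and endothelium, differed from the nearest line by -0.03 and 0.07. MB, which encodes myoglobin, was 0.53 over LhTERTL but 0.16 with the ratio as a covariate.

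Genes that stood apart were unevenly spread along the chromosomes. Lower genes made up 9.67% of those measured on chromosome X, 9.40% on chromosome 20, 9.24% on chromosome 6 and 8.62% on chromosome 10, beside 4.31% of all genes. Higher genes made up 7.44% on chromosome 4, 6.97% on chromosome 2, 6.56% on chromosome 20 and 6.22% on chromosome 12, beside 3.25% of all genes. Ordering genes by position (RefSeq, GRCh38.p14) and taking running medians over 31 genes of mock_cre minus the mean of the other lines, 510 of 18512 genes sat at or below -0.2 and 56 at or above 0.2, 3.06% in all. The same measure for the other lines gave 0.670% in LhTERTL, 0.254% in mock and 0.0918% in LhTERTL_cre.

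The longest low runs, picked after their values were seen and so given without a test, lay on chromosome 6. A run was a stretch with running medians at or below -0.2, or at or above 0.2, in these same arrays. Its median and its share of genes apart therefore follow in part from that choice and are given as description. From ORC3 to NT5DC1, 102 genes had a median difference of -0.29, with 30 apart lower (29.4%, beside 4.31% of all genes) and none higher. From SMAP1 to ZNF292, 60 genes had a median of -0.34, with 14 apart lower (23.3%). In the run from ORC3 the median over its genes was -0.18, -0.27, -0.26 and -0.22 in mock_cre tumours 1 to 4, against -0.06 to 0.15 in the 12 others. The choice of the run favours such a separation, but the values show that it was not the work of 1 mock_cre tumour. A run of 55 genes on chromosome 20, from LZTS3 to SPTLC3, had 18 apart lower (32.7%), and a run of 59 genes on chromosome 10, from KIN to MLLT10, had 14 (23.7%). The longest high run, 24 genes of chromosome 20 ending at PARD6B, had a median of 0.26 and 5 apart higher (20.8%, beside 3.25% of all genes). PCNA lies inside the low run of chromosome 20 and TTK inside that from SMAP1.

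**Figure D5:**
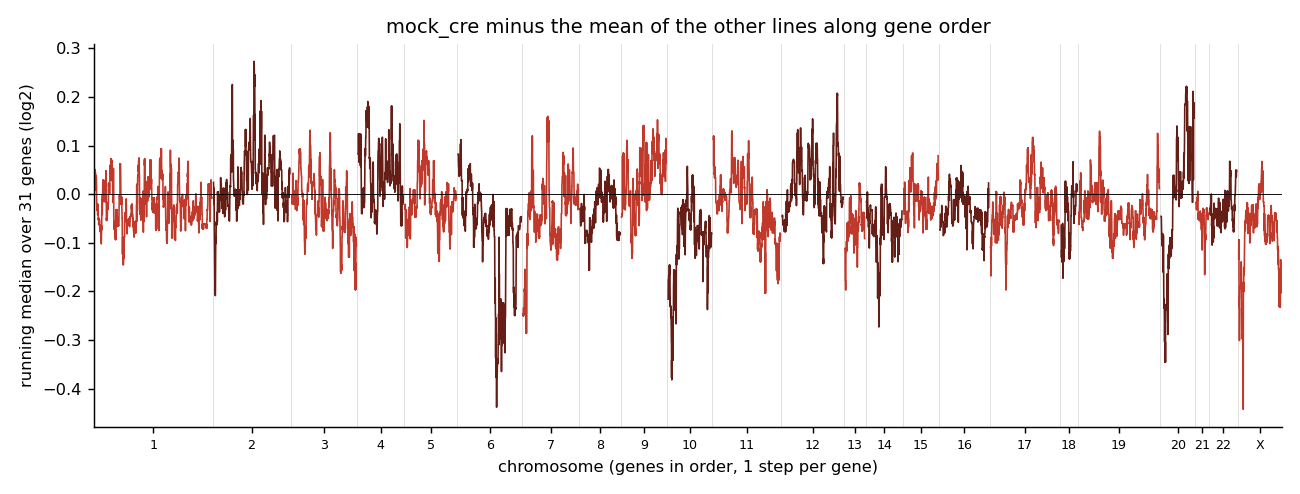
Running median over 31 genes of the difference between mock_cre and the mean of the other lines (log2), with measured genes in chromosome order, 1 step per gene, and alternating shades for chromosomes. Dips below -0.2 include stretches of chromosomes 6, 7, 10, 20 and X, and peaks above 0.2 include stretches of chromosomes 2 and 20.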

How the data were processed

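RNA of 16 xenograft tumours was measured on Affymetrix arrays, 1 per tumour, from 100 ng of total RNA per the labels. The deposited values are log2 signals made with RMA per the submitters' processing notes. The software version, platform and genome build are not given in the sources used here. In the deposited tables each probe set's log2 values are centred on their median over the 16 arrays (largest remaining median 5e-07), and both tables hold the same values, so no level remains. Array depth has no counterpart to read depth, and the 4 arrays per line limit the precision.

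Of 54675 probe sets, 62 controls, 961 of several genes and 12173 of no gene were left out. Another 3 without a gene ID and 10 of clashing symbols were dropped, and the mean of the remaining 41466 gave 20276 genes. Symbols were updated through RefSeq (GRCh38.p14), which matched 19249 genes.

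The comparison of lines used limma 3.58.1 (R 4.3.3), 1 mean per line, 3 contrasts and an adjusted p under 0.05. Named genes were the 15 largest differences from the nearest line in each direction (standing apart, not overlapping, all probe sets on 1 side), up to 3 members of each of 23 gene lists and 7 marker lists, and TERT. Further genes in the text were picked once their values were known. Some genes that the rule picks are not reported here. The members and lists were chosen with earlier results of these data known. The list of interferon-stimulated genes was compiled knowing published work on such tumours. List members not measured were MT1A, MT1B, HSPA1B, TRGC1, TERC, HBA1, HBA2 and SPRR2A. Lists were described by counts and medians, with no test.

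Alternatives were other gene values, scalings, variance models, thresholds, covariates, blocks and left-out arrays. The hybridisation control as a covariate and the fits on 11 arrays of low and 5 of high poly-A spike signal were added after seeing the data. The filter on low expression, a variance trend and the series matrix as another source could not be run, because no level remains and the tables are identical. On simulated data the rule recovered 75% of shifts of 0.5 log2 units and 99% of shifts of 1 among 200 changed genes, with 1 false call among 20276. The simulated noise was independent between genes and arrays, with no array-wide shift of RNA quality. The simulation therefore cannot show how many calls in the real arrays follow from such a shift. Equal replicate numbers did not pair tumours throughout: of 24 correlations between lines, -0.33 to 0.37, 9 were over 0.1. Those among the arrays numbered 2 were -0.03 to 0.37, the highest between mock_cre 2 and mock 2. Whether the arrays numbered 2 share a processing step was not tested. Other steps used pandas 2.3.3 and numpy 2.4.6 under Python 3.11.15, and plots matplotlib 3.10.9.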

Additional observations from a re-analysis of the deposited data

Results flagged for a closer look

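Among 174 groups of 4 values examined, 8 held a value whose gap to the nearest of the others was most of the group's range, and chance alone gives about 1 in 20 groups. In mock_cre, PRDX1, a peroxiredoxin, was -0.58 in tumour 4, against -0.40 to -0.37 in the other mock_cre tumours, and COX5A, a subunit of cytochrome c oxidase, was -0.21 in tumour 4, against -0.37 to -0.35. The muscle marker mean was -0.15 in mock_cre 4, against 0.13 to 0.17 in tumours 1 to 3. The keratinocyte and skin marker mean was 0.20 in mock_cre 2, against -0.10 to -0.07 in the others. The poly-A spike mean was 1.31 in mock 3, 1.78 in LhTERTL 3 and 1.89 in LhTERTL_cre 1, each far above its own line, and the 18S control was -0.11 in LhTERTL 3.

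Outside the genes analysed, 447 of 13134 probe sets that name no gene or several set mock_cre apart (3.40%), 373 higher and 74 lower. Probe sets of exactly 1 gene gave 6.98%, 1335 higher and 1558 lower of 41466. The difference between these splits was not tested.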

How the results depend on the processing

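Higher and lower genes apart in mock_cre numbered 659 and 873. They numbered 309 and 261 after quantile normalisation, 163 and 240 with the 3′/5′ ratio in the model, 3 and 15 in limma's treat at a fold of 1.5, and 308 and 473 at an adjusted p under 0.01. On the 11 arrays of low spike signal they were 263 and 477, and on the 5 of high spike signal 10 and 37. Plain probe sets alone gave 578 and 540 (of 16956 genes), and the hybridisation control as a covariate 450 and 554. Leaving out 1 array in turn gave 439 to 732 higher and 648 to 987 lower, the fewest higher without mock_cre 3. With the replicate block they were 682 and 844, and the numbers do not pair the tumours throughout.

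Against the mean of the other lines, 2866 were higher and 3477 lower. Quantile normalisation gave 2585 and 2533 and array median centring 3150 and 3150, without the excess of lower genes. The covariate gave 1381 and 1970, treat 62 and 159, the low-spike arrays 1833 and 2400, the high-spike arrays 946 and 1191, and leaving out 1 array 2288 to 3025 and 2923 to 3622. With the 4 line means as the units, limma's count was 0 and 0, with 2810 genes at an unadjusted p under 0.05. Of 83 named genes, 51 lost their call with the ratio covariate, 22 after quantile normalisation, 25 on the low-spike arrays and 68 in treat, and none changed sign in any setting run. Where a count moved, the cause was not tested, apart from the smaller number of arrays or stricter threshold that some settings have by construction. The ratio covariate overlaps with the mock_cre line, so by construction it leaves less information on each difference. Genes that lost their call with the covariate moved either way in size. NSDHL differed from mock by -0.46, and by -0.54 from its nearest line with the covariate, where it lost its call. KLF6 lost its call with a smaller difference from the nearest line, -0.59 without the covariate and -0.26 with it. SHMT2 did so too, at 0.39 and 0.22.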

Other observations

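Some genes of housekeeping pathways also set mock_cre apart, and their counts stand beside 4.31% of all genes lower and 3.25% higher. Of 38 respiratory chain genes 4 fell (10.5%) and none rose, UQCRFS1 by 0.39, ATP5F1C by 0.34, and COX5A by 0.32 against mock, and NDUFB10 by 0.27 against LhTERTL_cre, while the list's median was -0.01. The probe sets of ATP5F1C ran from -0.72 to -0.03 against the mean of the other lines, and those of COX5A were at -0.50 and -0.27. Of 30 ribosome biogenesis genes 4 fell (13.3%) and 1 rose (3.33%): NOP56, a core protein of box C/D particles, fell by 0.54 and DKC1 by 0.51 against mock, and POLR1B, a subunit of RNA polymerase I, rose by 0.34. Of 25 cholesterol synthesis genes 3 fell (12%), among them NSDHL by 0.46 and IDI1 by 0.36, and HSD17B7 rose by 0.37 (4.0%). The probe sets of IDI1 ran from -0.74 to 0.03 against the mean of the other lines. Of 29 NRF2 targets 2 fell (6.90%), and both, SRXN1 by 0.52 and PRDX1 by 0.36, encode enzymes of peroxide handling.

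Of 25 targets of p53, a gene PC-3 lacks in working form, 5 fell (20%, beside 4.31% of all genes) and none rose. AEN, a nuclease of apoptosis, read -0.67, -0.42, -0.50 and -0.43 in mock_cre, against -0.10 to 0.41 (median 0.06) in the 12 others, and CCNG1 and TIGAR fell by 0.26 and 0.33. None of 10 metallothioneins stood apart. With the array's 3′/5′ ratio in the model, COX5A and SRXN1 were the only named genes of these lists that stood apart.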
